A study of Drosophila melanogaster with 12 samples.

Results

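The genes described here are 32 heat shock proteins and molecular chaperones of Drosophila melanogaster, listed by name: 12 inducible genes, 19 constitutive genes and the regulator gene Hsf. A listed gene was measured where a probe set annotated to it alone was found on both array designs, and where a gene had several such probe sets the one with the highest mean level was read. This held for 25 of the 32 genes, out of 10757 genes with such a probe set on both designs: 6 of the 12 inducible genes, 18 of the 19 constitutive genes and Hsf. Hsp22, Hsp70Aa and Hsp70Ba had only probe sets annotated to several genes together, and no probe set was named for Hsp23, Hsp67Ba, Hsp67Bc or Hsp83.

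Chaperones bind unfolded proteins and help them to fold, to be held soluble or to be taken apart for degradation. In flies, heat and other stresses that unfold proteins activate the heat shock factor Hsf, which switches on the small heat shock genes, the Hsp70 genes and their co-chaperones. The constitutive chaperones, such as the Hsp70 cognates, the Hsp90 family and the CCT ring that folds actin and tubulin, are made in unstressed cells as part of routine protein synthesis.

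Total RNA came from heads of flies expressing CLKGR, in which the circadian activator CLK is joined to the region of the glucocorticoid receptor that binds hormone. The glucocorticoid dexamethasone (DEX) activates such a fusion, and cycloheximide (CHX), a blocker of protein synthesis, was given in every group, so that DEX+CHX is set against vehicle+CHX. An 8-array table held 2 DEX and 2 vehicle arrays at Zeitgeber time (ZT) 16, in the night, 2 DEX arrays and 1 vehicle array at ZT4, in the day, and 1 vehicle array (replicate 1) without a labelled time, which entered no main test. A second design, the 4-array table, held 2 DEX arrays (replicates 1 and 2) and 2 vehicle arrays (replicate 2, and 1 without a number, called replicate 3 as a name only), none with a labelled time. The sources used here do not give the promoter that drives CLKGR, the number of flies per sample, their age and sex, or the dose and duration of treatment. No label states that replicates were separate groups of flies, so p-values measure the spread between these arrays only, which may be technical.

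Levels are natural logs of the deposited intensities, read as log2 levels, and their precision is limited by how many arrays there are. Of the 25 genes, 24 passed the filter on dim probe sets on the larger design and 23 on the other. The Hsp70 cognate gene Hsc70-1 was below the filter on both designs, with levels of 2.69 to 2.86 on 8 arrays and of 2.74 to 2.92 on 4, and Hsc70-2 was below it on the 4 arrays, with 2.70 to 2.83. Vehicle ZT16 replicate 1 correlated least with the rest of its table over kept probe sets, at a mean of 0.945 against 0.952 to 0.969 for the others. On the 8 arrays all 7 measured photoreceptor markers passed the filter, and 6 of 8 neuron markers did (brp and VGlut did not). In whole heads, fewer cells of a type and less RNA per cell cannot be told apart.

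The 2 classes of chaperone genes had different medians over the arrays, while the SDs of their genes overlapped. Over the 8 arrays of the larger table the SD of a gene's level was 0.29 to 0.69 among the 6 inducible genes and 0.06 to 0.50 among the 18 constitutive genes. The lowest SDs were those of Hsc70-1 (0.06), Trap1 (0.08) and Hsc70-2 (0.12), at mean levels of 2.76, 3.74 and 3.12. The inducible genes had mean levels of 7.35 to 11.66. Taking each gene's deviation from its own mean over the table, the median deviation of the inducible genes was 0.25 and 0.89 on the DEX ZT16 arrays and 0.07 and 0.23 on the vehicle ZT16 arrays. It was -0.28 and -0.38 on the DEX ZT4 arrays, against 0 on the single vehicle ZT4 array. The vehicle array without a labelled time had the lowest median, -0.73, with 0 of 6 genes above their own mean. All ZT16 arrays therefore lay above all ZT4 arrays in this median, and DEX ZT16 replicate 2 and the vehicle array without a time lay at the ends.

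The constitutive genes that passed the filter had median deviations of 0.19 and 0.25 on the DEX ZT16 arrays and of -0.32 and 0.05 on the vehicle ZT16 arrays. The medians were 0.07 and -0.10 on the DEX ZT4 arrays, against 0.05 on the vehicle ZT4 array, and -0.04 on the vehicle array without a time. The array highest for a gene was DEX ZT16 replicate 2 for 5 of 6 inducible genes and for 7 of 18 constitutive genes. These 18 include Hsc70-1, which is below the filter and not in the medians. The array lowest for a gene was the vehicle array without a time for 4 of 6 inducible genes, and vehicle ZT16 replicate 1, the array that correlated least with the rest, for 10 of 18 constitutive genes. Over all 11261 kept probe sets the median deviation was between -0.04 and 0.01 on every array.

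**Figure D1:**
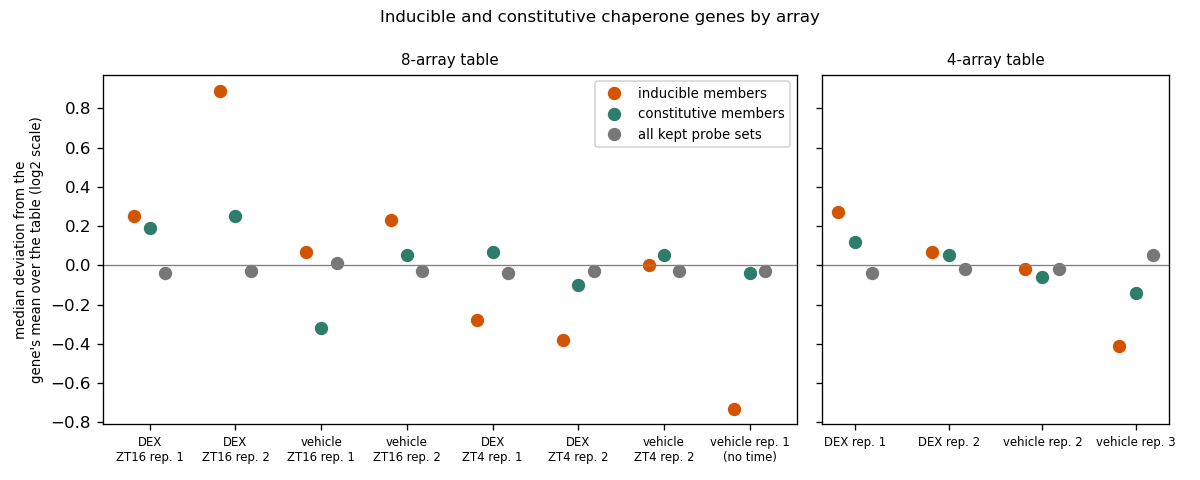
Median deviation of the inducible members, the constitutive members and all kept probe sets from each gene's mean over its table (log2 scale, y axis) on each array (x axis) of the 8-array and the 4-array table. The inducible members reached 0.89 on DEX ZT16 replicate 2 and -0.73 on the vehicle array without a labelled time, while all kept probe sets stayed between -0.04 and 0.05.

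The first comparison set ZT16 against ZT4, adjusted for treatment, over 4 ZT16 and 3 ZT4 arrays. All 6 inducible genes had a change above 0, from 0.40 to 0.83 on the log2 scale with a median of 0.55. The fit assumed the same time change with DEX and with vehicle, but all 6 differed more between times with DEX. Mean levels of Hsp27 at ZT16 and ZT4 were 10.40 and 9.29 with DEX, against 10.03 and 9.84 with vehicle. Those of Hsp26 were 12.28 and 11.42, against 11.74 and 11.66, and those of Hsp68 11.34 and 10.29, against 11.00 and 10.50. With vehicle, ZT4 was 1 array. The 17 constitutive genes had changes from -0.22 to 0.30 with a median of 0.05, and 10 of them were above 0. Over all kept probe sets the median was 0.02 and 54.7% had a change above 0, as did 50.4% of the brighter ones (mean level above the 60th percentile). No chaperone gene passed limma's test once p-values were adjusted by Benjamini-Hochberg over all 11261 probe sets (0% of all kept probe sets passed; smallest adjusted p among the chaperone genes 0.990). At an unadjusted p under 0.05, 2 of 24 chaperone genes were higher at ZT16, Hsp68 and Hsp27, where 1.58% of all kept probe sets were, and none was lower, against 1.99%.

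Among the small heat shock proteins, which hold unfolding proteins in a soluble state, Hsp26, Hsp27 and l(2)efl were measured. Hsp26 had levels of 11.56 and 13.00 on the DEX ZT16 arrays, 11.68 and 11.80 on the vehicle ZT16 arrays, 11.56 and 11.27 on the DEX ZT4 arrays and 11.66 on the vehicle ZT4 array. The groups of Hsp26 overlapped, with 1 array, DEX ZT16 replicate 2, far above the rest, and the time change was 0.55 ± 0.35 (SE). Hsp27, a neighbour of Hsp23 on chromosome arm 3L, had levels of 10.09 and 10.71 on the DEX ZT16 arrays and 9.98 and 10.07 on the vehicle ZT16 arrays, against 9.15 and 9.42 on the DEX ZT4 arrays and 9.84 on the vehicle ZT4 array. All 4 of its ZT16 levels lay above its 3 ZT4 levels, a change of 0.74 ± 0.26 (SE) or 1.67-fold, with an unadjusted limma p of 0.0258. That p missed 0.05 without DEX ZT4 replicate 1 (0.58, p 0.0956), without DEX ZT4 replicate 2 (0.72, limma p 0.0673) and without DEX ZT16 replicate 2 (0.50, p 0.0561).

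The small heat shock gene l(2)efl behaved less evenly. It had levels of 7.68 and 7.67 on the DEX ZT16 arrays, 6.87 and 7.98 on the vehicle ZT16 arrays, 6.97 and 7.21 on the DEX ZT4 arrays and 7.25 on the vehicle ZT4 array. Its lowest and its highest level were both on vehicle ZT16 arrays, so the groups overlapped, and the change was 0.42 ± 0.30 (SE). A second probe set of l(2)efl, at a mean level of 5.79, gave 0.36 ± 0.38. Hsp22, a small heat shock protein of mitochondria in flies, was read only by 2 probe sets annotated to Hsp22 and CG4456 together, its neighbour on 3L. They gave time changes of 0.61 ± 0.36 (SE) and 0.37 ± 0.51, and reached 12.73 and 7.34 on DEX ZT16 replicate 2, against at most 11.43 and 6.06 on the other arrays.

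The inducible Hsp70 genes encode the ATP-driven chaperones that are made in large amounts during heat shock. Hsp68 had levels of 10.91 and 11.78 on the DEX ZT16 arrays and 10.94 and 11.06 on the vehicle ZT16 arrays, against 10.46 and 10.13 on the DEX ZT4 arrays and 10.50 on the vehicle ZT4 array. Every ZT16 level lay above every ZT4 level. The change was 0.83 ± 0.25 (SE) or 1.78-fold, the largest among the 24 chaperone genes, with a limma p of 0.0129 and an adjusted p of 0.990. Without DEX ZT16 replicate 2 it was 0.56 (limma p 0.0137), and its unadjusted p stayed under 0.05 in all 15 alternatives, with changes of 0.56 to 1.20. On the vehicle array without a time Hsp68 had 9.45, below all 7 timed arrays.

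The Hsp70 copies share probe sets, so no copy can be read alone, and the values below count in no total of genes. A probe set annotated to Hsp70Aa and Hsp70Ab together had levels of 11.66 and 12.26 on the DEX ZT16 arrays and 11.56 and 11.85 on the vehicle ZT16 arrays. At ZT4 it had 11.20 and 11.19 with DEX and 11.13 with vehicle. Its ZT16 levels lay above all its ZT4 levels, with a change of 0.69 ± 0.18 (SE) and an unadjusted limma p of 0.00643. The brighter probe set of the 4 Hsp70B copies had a change of 0.76 ± 0.21 (limma p 0.00866), again with no overlap between times, and the dimmer one 0.49 ± 0.21 (limma p 0.0490) with overlap. None of these 3 probe sets passed after adjustment (adjusted p 0.990). Non-overlapping groups with the higher levels at ZT16 made up 2.44% of all kept probe sets.

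The inducible co-chaperones direct Hsp70 to its clients and release them. DnaJ-1, a J-domain protein that stimulates the Hsp70 ATPase, had levels of 8.10 and 8.72 on the DEX ZT16 arrays and 7.94 and 8.0 on the vehicle ZT16 arrays, against 7.78 and 7.37 on the DEX ZT4 arrays and 7.85 on the vehicle ZT4 array. The times did not overlap, and the change was 0.55 ± 0.27 (SE; limma p 0.0787). Starvin (stv), a BAG-domain partner of Hsp70, had 9.57 and 9.84 on the DEX ZT16 arrays and 9.46 and 9.59 on the vehicle ZT16 arrays. At ZT4, stv had 9.03 and 9.12 with DEX and 9.47 with vehicle, so that the lowest ZT16 level lay just under the vehicle ZT4 level. Its change was 0.40 ± 0.20 (SE; limma p 0.0825). Hsp68, Hsp27 and DnaJ-1 were thus the 3 of 24 chaperone genes whose times did not overlap with ZT16 higher, against 2.44% of all kept probe sets. With ZT16 lower, 0 of 24 did so, against 2.25%.

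**Figure D2:**
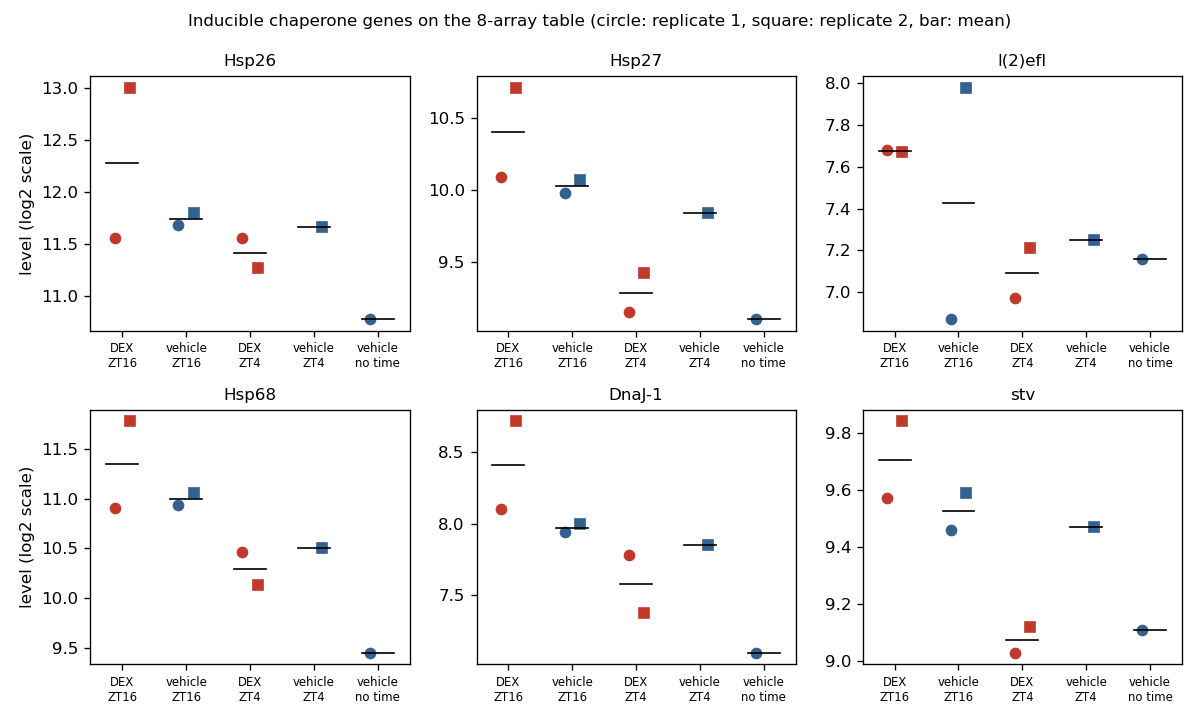
Levels (log2 scale, y axis, each panel with its own range) of the 6 measured inducible genes on each array of the 8-array table, by group (x axis); red marks DEX and blue vehicle, circles are replicate 1, squares replicate 2 and bars group means. Hsp68, Hsp27 and DnaJ-1 lie higher on all 4 ZT16 arrays than on all 3 ZT4 arrays, and DEX ZT16 replicate 2 is the highest array for every gene except l(2)efl.

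Hsf, the transcription factor of the heat shock response, did not separate the times. Its levels were 6.50 and 6.88 on the DEX ZT16 arrays, 5.62 and 6.63 on the vehicle ZT16 arrays, 6.58 and 6.10 on the DEX ZT4 arrays and 6.28 on the vehicle ZT4 array, a time change of 0.15 ± 0.31 (SE). Among the constitutive genes the smallest p belonged to Hsc70Cb, an Hsp110 that exchanges nucleotides on Hsp70. Hsc70Cb had 6.29 and 6.50 on the DEX ZT16 arrays and 5.73 and 6.07 on the vehicle ZT16 arrays. It had 5.92 and 5.88 on the DEX ZT4 arrays and 5.90 on the vehicle ZT4 array, a change of 0.30 ± 0.21 (SE; limma p 0.198) with overlap through vehicle ZT16 replicate 1. Next came Hsc70-4, the major constitutive Hsp70 of fly cells, and CCT8, a subunit of the CCT ring. Hsc70-4 had 11.21 and 11.32 on the DEX ZT16 arrays, 10.63 and 11.10 on the vehicle ZT16 arrays, 11.21 and 10.93 on the DEX ZT4 arrays and 10.81 on the vehicle ZT4 array, a change of 0.14 ± 0.17. CCT8 had 6.90 and 6.62 on the DEX ZT16 arrays, 6.45 and 6.56 on the vehicle ZT16 arrays, 6.51 and 6.24 on the DEX ZT4 arrays and 6.65 on the vehicle ZT4 array, a change of 0.18 ± 0.22. In both genes the times overlapped. The 8 CCT subunit genes had changes from -0.02 to 0.22 with a median of 0.07, and the chaperonin gene Hsp60A of the mitochondria had -0.22 ± 0.29.

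The median of the inducible genes was 0.35 without DEX ZT16 replicate 2 and 0.85 without the vehicle ZT4 array. Some lists of cell type markers also differed by time. All 7 measured photoreceptor markers, of 10 listed, had a change above 0 with a median of 0.65, and 5 of 6 kept neuron markers did with a median of 0.39. The 4 kept gut markers had a median of 0.39 and were all above 0. Other lists were near 0: glia with 3 of 7 above 0 (median -0.01), fat body with 3 of 7 (median -0.10) and muscle with 5 of 7 (median 0.08). At an unadjusted limma p under 0.05, 5 of 7 photoreceptor and 2 of 6 neuron markers were higher at ZT16. In fat body AkhR was higher (0.61 ± 0.14, SE) and Lsd-1 lower (-0.98 ± 0.24). None of these markers passed after adjustment (adjusted p 0.990). The summed log2 level of the 7 measured photoreceptor markers was 43.3 to 49.7 on the ZT16 arrays and 41.7 to 42.6 on the ZT4 arrays, and that of the 8 neuron markers was 34.2 to 36.3 and 32.4 to 33.2. The sum of the 5 measured gut markers was 18.4 to 30.7 at ZT16 and 19.3 to 24.7 at ZT4, with Try29F below the filter. Its highest value was on DEX ZT16 replicate 2, the array on which 5 of 6 inducible genes were highest. The part of these markers in the result was not tested.

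The second comparison set DEX against vehicle on arrays that had a labelled time, adjusted for time, over 4 DEX and 3 vehicle arrays. The chaperone genes as a group had small changes above 0: 21 of 24 were above 0, with a median of 0.13, where 45.7% of all kept probe sets and 50.2% of the brighter ones had a change above 0. The inducible genes had a median of 0.11 and the constitutive genes one of 0.13. Without DEX ZT16 replicate 2 these medians were -0.16 and 0.063, without vehicle ZT16 replicate 1 -0.035 and 0.016, and with array weights -0.078 and -0.001. The count of 21 was 9 with array weights, 14 without DEX ZT16 replicate 2 and 13 without vehicle ZT16 replicate 1. No chaperone gene passed limma's test after adjustment, against 0% of all kept probe sets (adjusted p at least 0.994), and 0 of 24 had an unadjusted p under 0.05, where 1.63% of all kept probe sets were higher and 1.76% lower at that level.

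Cell type markers in this comparison had 6 of 7 glia markers above 0, with a median of 0.18. So were 5 of 7 photoreceptor markers, with a median of 0.20, and 3 of 4 kept gut markers, with a median of 0.82. Above 0 were also 2 of 6 neuron markers (median -0.07), 3 of 7 fat body markers (median -0.02) and 4 of 7 muscle markers (median 0.02). Of these, 1 had an unadjusted p under 0.05, the glia marker wrapper, at 0.36 ± 0.13 (SE; limma p 0.0287, adjusted p 0.994). The summed log2 level of the 7 measured glia markers was 34.9 to 39.3 on the DEX arrays and 35.3 to 35.6 on the vehicle arrays with a time. The part of these markers in the result was not tested.

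Hsp60A, the ring-shaped folding chamber of the mitochondrial matrix, had the smallest p. Its levels were 7.94 and 7.92 on the DEX ZT16 arrays and 8.35 and 7.86 on the DEX ZT4 arrays, against 6.70 and 7.70 on the vehicle ZT16 arrays and 7.50 on the vehicle ZT4 array. All 4 DEX levels lay above all 3 vehicle levels, which no other chaperone gene showed and which 1.99% of all kept probe sets did. No chaperone gene had all DEX levels below all vehicle levels, as 2.52% of all kept probe sets did. The change was 0.68 ± 0.29 (SE) or 1.60-fold (limma p 0.0506, adjusted p 0.994). The vehicle array without a time, which was outside the test, had 7.32, also below the 4 DEX levels.

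The cytosolic Hsp70 cognate Hsc70-4, with 10.93 to 11.32 on the 4 DEX arrays and 10.63 to 11.10 on the 3 vehicle arrays, came next. Only DEX ZT4 replicate 2 lay within the vehicle range, and the change was 0.35 ± 0.17 (SE; limma p 0.0800). CCT1, a subunit of the CCT ring, had 6.91 and 7.01 on the DEX ZT16 arrays and 6.86 and 6.83 on the DEX ZT4 arrays, against 6.20 and 6.91 with vehicle at ZT16 and 6.58 at ZT4. The 4 DEX levels of CCT1 were close together, and 1 vehicle array reached them, for a change of 0.35 ± 0.23 (SE). Hsf had 0.37 ± 0.31 and Hsc70Cb 0.30 ± 0.21 in this comparison.

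The inducible genes had changes between -0.05 and 0.22. Hsp26 had a change of 0.22 ± 0.35 (SE), DnaJ-1 0.15 ± 0.27, Hsp68 0.13 ± 0.25, l(2)efl 0.09 ± 0.30, Hsp27 0.00 ± 0.26 and stv -0.05 ± 0.20. The second probe set of l(2)efl gave the opposite sign, -0.17 ± 0.38. The probe sets shared by Hsp70 copies had 0.18 ± 0.18 for Hsp70Aa with Hsp70Ab and 0.27 ± 0.21 and 0.25 ± 0.21 for the Hsp70B copies. The 8 CCT genes had changes of 0.00 to 0.35 with a median of 0.13. Below 0, with stv, lay Hsc70-2 at -0.10 ± 0.11, a dim probe set at 2.96 to 3.35 over the 8 arrays, and Trap1, the Hsp90 of mitochondria, at -0.05 ± 0.12.

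**Figure D3:**
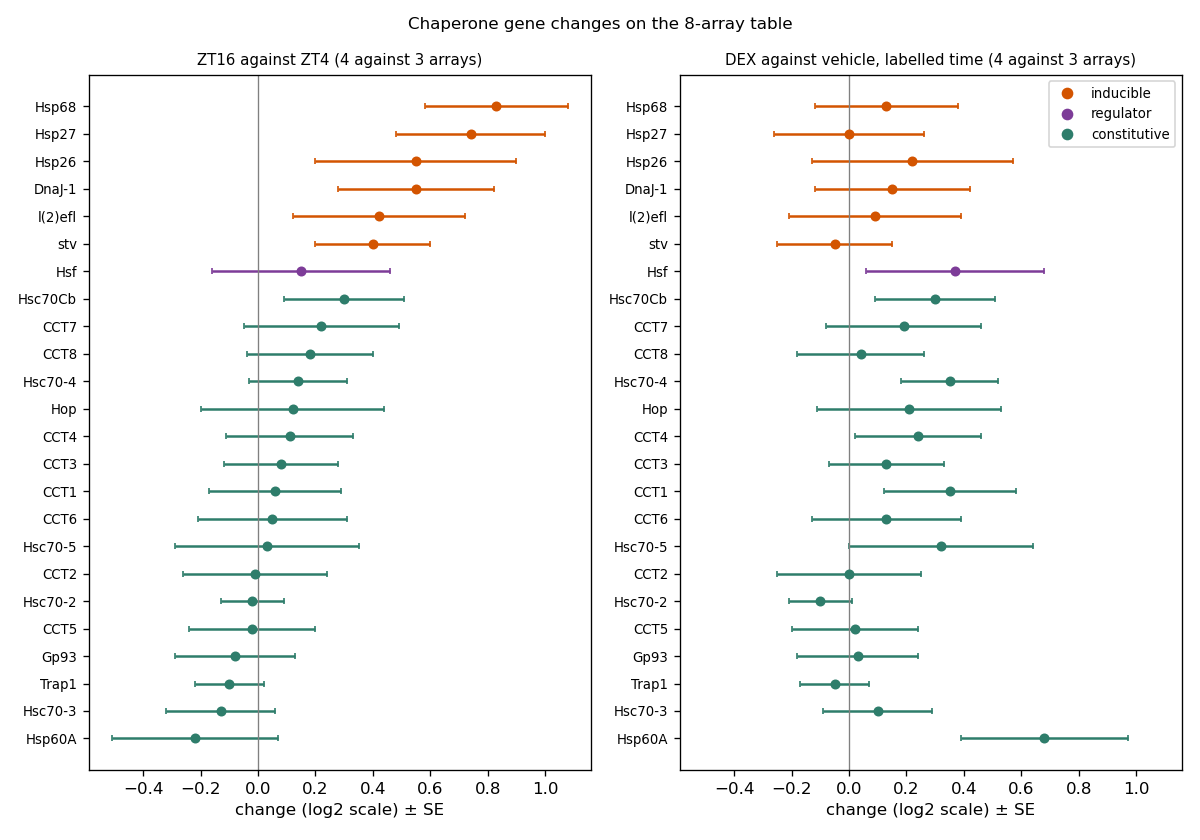
Change with its SE (log2 scale, x axis) of the 24 chaperone genes that passed the filter in the 8-array table (y axis), for ZT16 against ZT4 (left) and DEX against vehicle on arrays that had a labelled time (right), coloured by class. The 6 inducible genes lie between 0.40 and 0.83 for time and between -0.05 and 0.22 for DEX, and Hsp60A has the largest DEX change, 0.68.

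Within each time, the DEX change of the chaperone genes was of opposite sign for most of them; these comparisons use the same 7 arrays as those above. At ZT16, with 2 DEX and 2 vehicle arrays, 23 of 24 genes had a change above 0 and the median was 0.32, where 44.3% of all kept probe sets had a change above 0 (52.4% of the brighter ones). At ZT4, with 2 DEX arrays and 1 vehicle array that was assumed to vary like the others, 5 of 24 were above 0 and the median was -0.13, where 55.5% of all kept probe sets were above 0 (50.3% of the brighter ones). None of the 24 genes passed limma's adjusted test at either time, as for 0% of all kept probe sets at each (adjusted p at least 0.976 at ZT16 and 1.00 at ZT4). At ZT16, 0 of 24 had an unadjusted p under 0.05 (1.42% of all kept probe sets higher, 1.38% lower), and at ZT4 also 0 of 24 (1.14% higher, 2.86% lower).

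The 6 measured inducible genes were above 0 at ZT16 and below it at ZT4 without exception. At ZT16 all 6 had a change above 0, from 0.18 ± 0.24 (SE) for stv to 0.54 ± 0.45 for Hsp26, with a median of 0.36. Hsp27 (0.37 ± 0.28) and DnaJ-1 (0.44 ± 0.33) had both DEX levels above both vehicle levels. This median was 0.056 without DEX ZT16 replicate 2, where the constitutive median was 0.35, and 0.72 without DEX ZT16 replicate 1. At ZT4 all 6 had both DEX levels below the single vehicle level, with a median of -0.26, where 30.8% of all kept probe sets lay below in the same way. The changes there ran from -0.55 ± 0.35 (SE) for Hsp27 and -0.40 ± 0.29 for stv to -0.16 ± 0.51 for l(2)efl. Probe sets shared by Hsp70 copies lay near 0 or above it at ZT4. That of Hsp70Aa with Hsp70Ab had 0.26 ± 0.25 at ZT16 and 0.07 ± 0.30 at ZT4. Those of the Hsp70B copies had 0.37 ± 0.29 and 0.43 ± 0.27 at ZT16, and 0.12 ± 0.35 and -0.01 ± 0.33 at ZT4. Those shared by Hsp22 and CG4456 had 0.69 ± 0.42 and 0.93 ± 0.59 at ZT16, and -0.42 ± 0.52 and -0.64 ± 0.72 at ZT4.

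The constitutive genes had a median of 0.28 at ZT16 and of -0.10 at ZT4. Their median at ZT16 was 0.15 without vehicle ZT16 replicate 1 and 0.62 without vehicle ZT16 replicate 2. Both DEX levels lay above both vehicle levels at ZT16 for 9 of 17 constitutive genes, and for 11 of all 24 genes, where 10.1% of all kept probe sets did. The reverse held for 0 of 24 genes and 13.8% of all kept probe sets. These 9 were Hsc70-4 (0.40 ± 0.23), Hsc70-5, the Hsp70 of mitochondria (0.58 ± 0.42), Hsc70Cb (0.50 ± 0.27), the Hsp90 of the endoplasmic reticulum Gp93, Hsp60A (0.73 ± 0.41), CCT1 (0.41 ± 0.33), CCT3, CCT7 (0.49 ± 0.33) and CCT8 (0.25 ± 0.28). At ZT4, the 4 constitutive genes with both DEX levels above the vehicle level were Hsp60A (0.60 ± 0.50), Hsc70-4 (0.26 ± 0.29), CCT1 (0.26 ± 0.41) and CCT4 (0.17 ± 0.39), where 31.6% of all kept probe sets lay above in the same way. Both DEX levels lay below the vehicle level for 9 of 17 constitutive genes, and for 15 of all 24 genes, against the 30.8% of all kept probe sets. Of these 9, Hsc70-2 had the smallest p, at -0.15 ± 0.19 from 3.06 and 3.09 on the DEX ZT4 arrays against 3.23 on the vehicle ZT4 array (limma p 0.444). Hsp60A, Hsc70-4, CCT1 and CCT4, with Hsf at 0.57 ± 0.43 and 0.06 ± 0.52, were the 5 genes with a change above 0 at both times.

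The difference between the DEX changes, ZT16 minus ZT4, was tested in the same fit. It was above 0 for 24 of 24 chaperone genes, with a median of 0.44, where 45.2% of all kept probe sets and 52.5% of the brighter ones were above 0. The median was 0.64 for the inducible and 0.34 for the constitutive genes. Without vehicle ZT16 replicate 1 the count above 0 was 16 of 24, and without any 1 of the other 5 arrays that can be left out it was 23 or 24. No gene passed limma's adjusted test, as for 0% of all kept probe sets (adjusted p at least 0.997), and 0 of 24 had an unadjusted p under 0.05, where 1.93% of all kept probe sets were higher and 0.790% lower.

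The smallest p belonged to Hsp27, with a difference of 0.93 ± 0.45 (SE; limma p 0.0843). Hsp26 had 0.78 ± 0.72, DnaJ-1 0.71 ± 0.53, stv 0.58 ± 0.37, Hsp68 0.55 ± 0.51 and l(2)efl 0.40 ± 0.66. Of the shared probe sets, that of Hsp70Aa with Hsp70Ab had 0.19 ± 0.39 and those of the Hsp70B copies 0.26 ± 0.45 and 0.44 ± 0.43. Those of Hsp22 with CG4456 had 1.11 ± 0.66 and 1.56 ± 0.94. Among the constitutive genes, CCT7 had 0.77 ± 0.52, from levels of 6.50 and 6.72 on the DEX ZT16 arrays against 5.83 and 6.40 on the vehicle ZT16 arrays, and of 6.28 and 5.89 on the DEX ZT4 arrays against 6.36 on the vehicle ZT4 array. CCT8 had 0.53 ± 0.45, with a DEX change of 0.25 ± 0.28 at ZT16 and of -0.27 ± 0.35 at ZT4. Hsc70Cb had 0.50 ± 0.43. Hsp60A had a difference of only 0.13 ± 0.65, near the low end of the range of 0.08 to 0.93 over the 24 genes.

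Markers of other cell types were read in the same fit, and none passed limma's adjusted test. For DEX at ZT16, 7 of 7 fat body (median 0.34), 7 of 7 photoreceptor (0.18) and 6 of 7 glia markers (0.31) had a change above 0. So did 3 of 4 kept gut (1.51), 4 of 7 muscle (0.10) and 2 of 6 neuron markers (-0.07). The 7 kept fat body markers all had a difference above 0, with a median of 0.90 and 1 of 7, Lsp2, at an unadjusted p under 0.05 (3.21 ± 1.19, SE; limma p 0.0367, adjusted p 0.997), and at ZT4 only 1 of 7 had a DEX change above 0, with a median of -0.47. Their summed log2 level, over 8 measured markers of which Fbp1 was below the filter, was 72.8 and 73.6 on the DEX ZT16 arrays, 73.1 and 68.8 on the vehicle ZT16 arrays, 66.8 and 71.0 on the DEX ZT4 arrays and 74.5 on the vehicle ZT4 array. Of the 4 kept gut markers, 3 had a difference above 0, with a median of 1.71 and 0 of 4 at an unadjusted p under 0.05. The part of these cell types in the chaperone values was not tested.

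**Figure D4:**
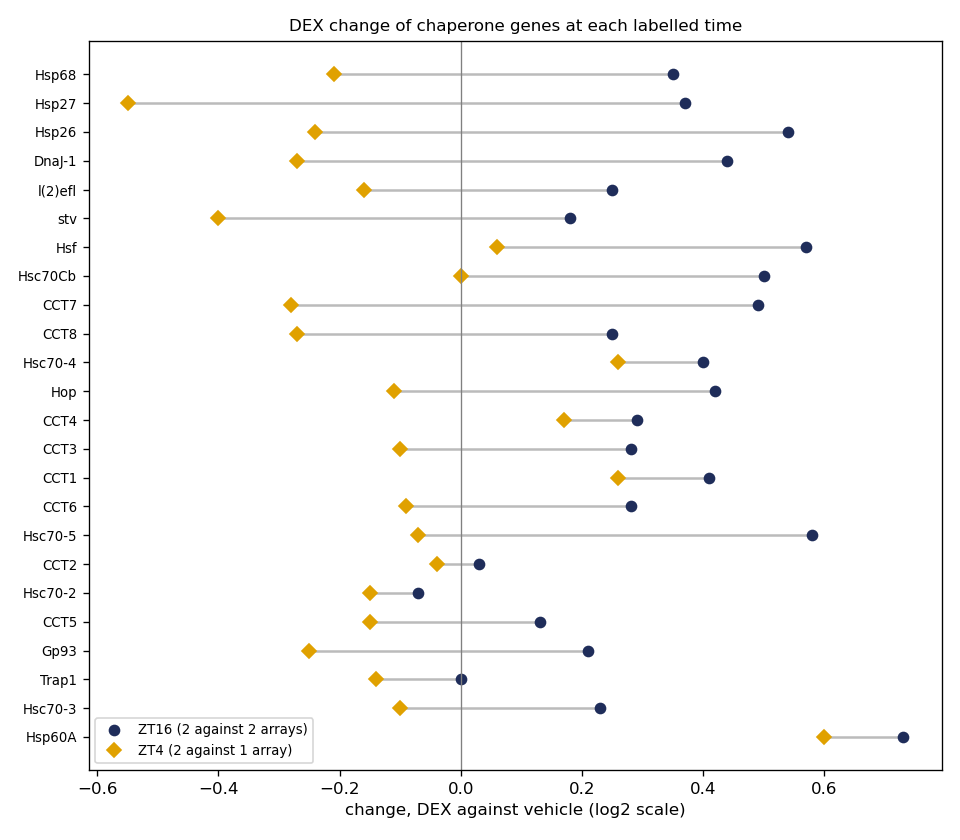
Change between DEX and vehicle (log2 scale, x axis) at ZT16 (circles, 2 against 2 arrays) and at ZT4 (diamonds, 2 against 1 array) for the 24 chaperone genes (y axis), joined by a line for each gene. The ZT16 value lies to the right of the ZT4 value for all 24 genes, by 0.08 to 0.93.

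The third set of values came from the 4-array table, where 2 DEX arrays were compared with 2 vehicle arrays without a labelled time. There, 20 of 23 chaperone genes had a change above 0, with a median of 0.22, where 36.5% of all kept probe sets and 46.6% of the brighter ones did and the median over all kept probe sets was -0.05. All 6 inducible genes were above 0, with a median of 0.40, and 13 of 16 constitutive genes were, with a median of 0.15. No chaperone gene passed limma's test after adjustment over 8379 probe sets (smallest adjusted p among them 0.778); 1 probe set did, of the clock gene tim, lower with DEX, or 0.0119% of all kept probe sets. At an unadjusted p under 0.05, 1 of 23 was higher, CCT8, where 3.20% of all kept probe sets were higher and 2.22% lower. The 2 tables were normalized and tested apart, and no level is compared between them.

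Both DEX levels lay above both vehicle levels for 13 of 23 genes, where 12.1% of all kept probe sets did, and below both for 0 of 23 genes, where 31.4% did. Such shares were not counted for the brighter probe sets alone, here or at ZT16. Among the small heat shock proteins, Hsp26 had 11.01 and 10.85 on the DEX arrays and 10.81 and 10.36 on vehicle replicates 2 and 3, a change of 0.35 ± 0.22 (SE). Hsp27 had 9.17 and 9.04 with DEX and 8.85 and 8.45 with vehicle, a change of 0.45 ± 0.25. Neither gene's groups overlapped, and in both the vehicle arrays were further apart than the DEX arrays. The third, l(2)efl, had 7.13 and 7.01 with DEX and 6.88 and 7.03 with vehicle, which overlapped.

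Hsp68 had levels of 10.56 and 10.18 on the DEX arrays and 10.08 and 9.68 on vehicle replicates 2 and 3, a change of 0.49 ± 0.24 (SE; limma p 0.0963) without overlap. DnaJ-1 had 8.97 and 8.57 with DEX and 8.62 and 8.33 with vehicle, a change of 0.30 ± 0.26 with overlap. For stv, which had 7.80 and 8.11 with DEX and 7.70 and 7.02 with vehicle, the change was 0.60 ± 0.32 without overlap. A second probe set of stv gave the opposite sign, -0.40 ± 0.24, so the direction of stv on these arrays depends on the probe set. Vehicle replicate 3 was the lowest array for 5 of 6 inducible genes, and their median change was 0.22 without it and 0.61 without vehicle replicate 2.

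Probe sets shared by Hsp70 copies gave 0.35 ± 0.30 (SE), from 11.90 and 11.56 with DEX and 11.79 and 10.97 with vehicle, for the 4 Hsp70B copies. A dimmer probe set annotated to those copies and to CG5608 had 6.72 and 6.0 with DEX and 5.80 and 4.80 with vehicle, a change of 1.07 ± 0.42 (limma p 0.0459, adjusted p 0.778). Of the 3 probe sets shared by Hsp22 and CG4456, changes were 0.08 to 0.25, and 1 had no overlap. Hsf had 4.78 and 4.99 with DEX and 4.70 and 4.04 with vehicle, a change of 0.52 ± 0.25 (SE; limma p 0.0930) without overlap.

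CCT8 had levels of 4.86 and 4.54 on the DEX arrays and 4.20 and 4.31 on vehicle replicates 2 and 3. The change was 0.45 ± 0.17 (SE) or 1.36-fold (limma p 0.0451, adjusted p 0.778). Its unadjusted p was under 0.05 in 5 of 11 alternatives, and without DEX replicate 1 the change was 0.29 (limma p 0.241). CCT1 had 6.02 and 6.08 with DEX and 5.97 and 5.43 with vehicle, and CCT5 had 6.41 and 6.06 with DEX and 5.95 and 5.81 with vehicle. Each of these 2 CCT genes had a change of 0.35 without overlap, and 6 of the 8 CCT genes had no overlap. CCT2, at 0.01 ± 0.28 on the probe set read, had 0.41 ± 0.23 on its other probe set.

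The 4 Hsp70 cognates that passed the filter had changes of -0.05 to 0.28, and none was without overlap. Hsc70-4 had 8.99 and 8.65 with DEX and 8.92 and 8.58 with vehicle, a change of 0.07 ± 0.26 (SE). Hsc70Cb had 3.93 and 4.0 with DEX and 4.06 and 3.97 with vehicle, or -0.05 ± 0.12. Hsp60A had 6.88 and 6.69 with DEX and 6.87 and 6.38 with vehicle, a change of 0.16 ± 0.27 with overlap, so the separation of DEX and vehicle seen for Hsp60A in the 8-array table was not seen here. Of 7 muscle markers, 1 had a change above 0, with a median of -0.36, and their summed log2 level was 30.8 and 33.0 with DEX and 35.3 and 32.6 with vehicle. Of 4 kept gut markers, 1 had a change above 0, with a median of -0.36, and 3 had both DEX levels below both vehicle levels. The summed log2 level of the 5 measured gut markers was 23.8 and 23.7 with DEX and 25.4 and 25.3 with vehicle, and alphaTry had the smallest p (-1.01 ± 0.23, SE; limma p 0.00586, adjusted p 0.746). Above 0 on these arrays were also 6 of 8 fat body markers (median 0.16) and 5 of 6 photoreceptor markers (median 0.11). Of the glia markers 3 of 6 were (median -0.05), and of the neuron markers 2 of 6 (median -0.03). The part of these cell types in the result was not tested.

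**Figure D5:**
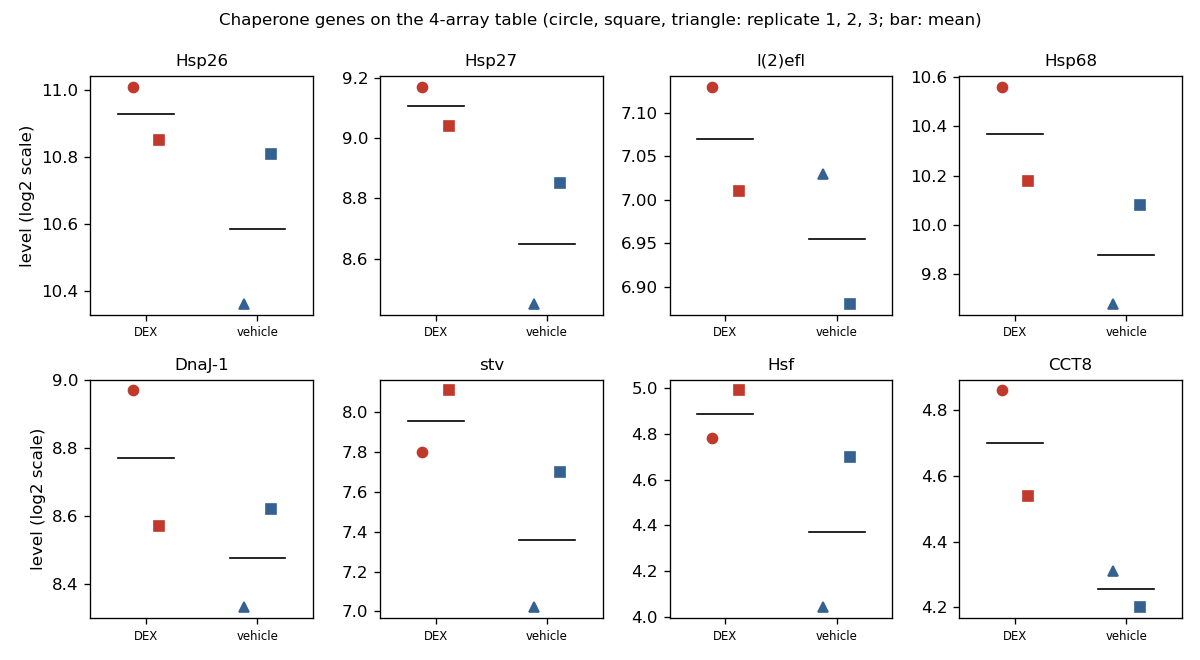
Levels (log2 scale, y axis, each panel with its own range) of the 6 measured inducible genes, Hsf and CCT8 on the 4 arrays of the 4-array table (x axis); red marks DEX and blue vehicle, circles, squares and triangles are replicates 1, 2 and 3, and bars are group means. Both DEX levels lie above both vehicle levels for Hsp26, Hsp27, Hsp68, stv, Hsf and CCT8, and the groups of l(2)efl and DnaJ-1 overlap.

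Other genes of protein folding and stress were read from lists of their own, and no member passed limma's adjusted test in any of the 6 comparisons. Of other heat shock genes, 4 of 12 passed the filter on the larger design. For ZT16 against ZT4, 1 of 4 had a change above 0, CG7409 at 0.45 ± 0.23 (SE, limma p 0.0954). The median of the 4 was -0.09 and the lowest change -0.18. For DEX on the timed arrays 1 of 4 was above 0, with a median of -0.07. The widest of their DEX changes there was -0.51 ± 0.23 (SE; limma p 0.0652), for CG7409, and 0 of 4 had an unadjusted p under 0.05 in either comparison. For ZT16 against ZT4, 1 of 6 prefoldin genes, which hand new actin and tubulin to the CCT ring, had a change above 0, with a median of -0.33. In the same comparison 3 of 15 kept genes of folding in the endoplasmic reticulum were above 0, with a median of -0.11, and 13 of 20 J-domain and co-chaperone genes were, with a median of 0.08.

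For DEX at ZT16, where 1.42% of all kept probe sets were higher with an unadjusted p under 0.05, 1 of 15 endoplasmic reticulum genes was. This was sip3, an E3 ligase of protein degradation at that membrane, at 0.64 ± 0.21 (SE; limma p 0.0211), followed by Herp at 0.56 ± 0.26. Both DEX levels lay above both vehicle levels for 5 of these 15 genes and below for 2, where 10.1% and 13.8% of all kept probe sets did. Of 11 genes of oxidative and protein stress, 1 had such a p, Gclm, the regulatory subunit of the enzyme that starts glutathione synthesis, at 0.75 ± 0.22 (SE; limma p 0.0157), followed by ref(2)P, the fly p62, at 0.42 ± 0.28. In that list 3 genes had both DEX levels above both vehicle levels and 1 below. At ZT16, 11 of the 15 endoplasmic reticulum genes (median 0.30) and 6 of these 11 genes (median 0.20) had a DEX change above 0. So did 13 of 20 J-domain and co-chaperone genes (0.14), 4 of 6 prefoldin genes (0.24) and 1 of 4 other heat shock genes (-0.05). Of all kept probe sets 44.3% did, and of the brighter ones 52.4%. Among J-domain and co-chaperone genes on the 4 arrays without a time, 1 of 18 was higher with an unadjusted p under 0.05, where 3.20% of all kept probe sets were: DnaJ-H at 0.71 ± 0.26 (SE; limma p 0.0351), with Tpr2 next at 0.75 ± 0.33. There 6 of 18 had both DEX levels above both vehicle levels and 1 below, where 12.1% and 31.4% of all kept probe sets did.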

How the data were processed

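Total RNA of fly heads was hybridised to 2 Affymetrix array designs, 12 arrays in all. The authors deposited linear intensity values, made with GCRMA per the submitters' processing notes; the sources used here do not give its version or settings. The natural log of each deposited intensity was read as its log2 level, since log2 of the values reached 22.36, beyond the range of GCRMA; log2 would make every change 1.44 times as large and leave p-values as they are.

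Control probe sets (183 and 44) were left out, and probe sets with a mean above the 40th percentile of their table were kept, 11261 of 18769 and 8379 of 13966 (levels above 2.78 and 2.92). Gene names came from GEO's platform annotation and were matched to RefSeq by gene identifier, where Hop is Stip1 and Hsc70Cb is Hsp110. No gene was read from a probe set annotated to several genes. Each table was fitted alone in R 4.3.3 with limma 3.58.1, by lmFit and by eBayes with its trend option, with Benjamini-Hochberg adjustment over all kept probe sets and a threshold of 0.05. DEX and time effects came from an additive fit over 7 arrays, and the effects within each time from a fit with 1 mean per group. The additive fit and the fit of the 4-array table were run on simulated data. The simulation had independent noise and changes larger than any reported here for a chaperone gene. The fit with 1 mean per group was not simulated. The members and lists were chosen with earlier results of these data known.

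Full values are given for the inducible genes, Hsf and the 3 constitutive genes with the smallest p per comparison. The rest are given by range and count. From each other list of folding and stress genes, the 2 genes with the smallest p are named where any had an unadjusted limma p under 0.05. Cell type markers are given for chosen lists by count, median and summed level, and not every marker with such a p is named. Alternatives covered the filter, normalization, trend, array weights, log base, probe set choice, a replicate block and leaving out each array.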

Additional observations from a re-analysis of the deposited data

Results flagged for a closer look

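Each gene's levels were checked for an array far from the others in 50 groups of 4 arrays: the 4 arrays labelled DEX with a time, and the 4 labelled ZT16. These groups mix times or treatments and share arrays, and chance flags about 1 in 20. An array was singled out where its gap to the nearest other array, as a share of the group's range, exceeded Dixon's 95% critical value for 4 arrays, which happened 10 times.

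DEX ZT16 replicate 2 stood high for inducible genes. Hsp26 had 13.00 on it, with the nearest of the 4 DEX arrays at 11.56 and the nearest of the 4 ZT16 arrays at 11.80. Among the ZT16 arrays it also stood high for Hsp27 (10.71, nearest 10.09) and Hsp68 (11.78, nearest 11.06). This array also had the highest summed level of gut markers, 30.7.

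Vehicle ZT16 replicate 1 stood low among the ZT16 arrays for the constitutive genes Hsc70-5 (6.51, nearest 7.53), CCT1 (6.20, nearest 6.91) and CCT4 (5.49, nearest 6.08). It stood high for Hsc70-1 (2.83, nearest 2.72), a gene below the filter. It is also the array with the lowest mean correlation with the others, 0.945.

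Among the DEX arrays, Hsp60A had 8.35 on DEX ZT4 replicate 1 (nearest 7.94), and Hsc70-5 had 7.05 on DEX ZT4 replicate 2 (nearest 7.58).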

How the results depend on the processing

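In all, 33 results were recomputed to give 463 alternative values. Of these, 426 stayed on their side of the threshold or within the spread of the value reported, and 37 moved. A value within that spread could change sign, as the inducible median for DEX on the timed arrays did. There were 0 called values that reversed, but none could, since no chaperone gene had passed the adjusted threshold. No chaperone gene passed the adjusted threshold under any alternative. With log2 of the deposited values, which makes every change 1.44 times as large, the difference between DEX effects had an inducible median of 0.93. The constitutive median on the 4-array table was then 0.22. With quantile normalization the constitutive medians were 0.14 for the difference and 0.053 on the 4-array table. Leaving out 1 array at a time gave inducible medians of 0.35 to 0.85 for ZT16 against ZT4, 0.056 to 0.72 for DEX at ZT16 and 0.41 to 1.00 for the difference. It gave constitutive medians of 0.15 to 0.62 for DEX at ZT16, 0.14 to 0.51 for the difference and 0.12 to 0.24 on the 4-array table. For DEX on the timed arrays the inducible median was -0.162 to 0.36 and the constitutive one 0.016 to 0.281. Apart from this change of log base, the cause of these shifts was not tested.

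Counts of genes with an unadjusted p under 0.05 in limma depended on single arrays. For DEX at ZT16, leaving out 1 ZT16 array leaves 1 array in its group, so those counts are not given. The constitutive median there was 0.62 without vehicle ZT16 replicate 2, and the inducible one 0.72 without DEX ZT16 replicate 1. For ZT16 against ZT4 the count was 1 to 4 over the alternatives. No share of all kept probe sets is given for the alternatives, for these counts or for those of changes above 0. Replicate numbers are shared by groups, and the ZT16 deviations of the same-numbered arrays correlated at 0.07 (2 pairs), so the numbers were not read as pairs. With a replicate block the inducible medians were 0.61 for time and 0.18 for DEX, Hsp68 had 0.89 and Hsp27 0.83 for time, and no gene passed. No paired analysis was possible for the 4-array table because its groups share fewer than 2 numbers. Every DEX value at ZT4, and every difference between times, rests on 1 vehicle ZT4 array.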
